A study of Mus musculus with 6 samples.

Results

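The 8 genes described here encode the plasminogen activators Plau (urokinase) and Plat (tissue-type activator), the urokinase receptor Plaur, and the epithelial serine proteases St14 (matriptase), Prss8 (prostasin), Prss22 (tryptase epsilon), Klk8 and Klk10 (kallikrein-related peptidases). They are 8 of 31017 gene symbols in a table of raw read counts of the mouse mammary carcinoma line 4T1. The genes were chosen by symbol from the difference between the groups in this same table, so their values between groups are given as a description, with no p. All 8 passed the low-count filter, which kept 12076 genes.

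RNA with poly(A) tails was sequenced from 6 samples of 4T1 cells in 2 groups. Cells of both groups received Cas9 by nucleofection and then grew in 3D gels of collagen I, from which they were freed with collagenase. The 3 control samples had control guides, and the 3 ETV4 KO samples had guides against Etv4, a PEA3-type ETS transcription factor, with no rescue or second guide set among the samples used here. The ETV4 KO libraries share the code c39, which the labels do not explain, so the number of clones behind them is unknown here. Whether a group's samples came from separate cultures is unstated, so the p-values cover variation among these libraries alone, and that variation may be technical. The protocol names 2 collagen concentrations without saying which was used.

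Plasminogen is a circulating zymogen that urokinase or tissue-type activator cuts to plasmin, a broad protease that degrades fibrin and matrix proteins and activates pro-metalloproteinases. Urokinase works at the cell surface, bound to its GPI-anchored receptor, and is held in check by serpins such as PAI-2 (Serpinb2). Matriptase is a membrane-spanning protease of epithelia that activates prostasin, pro-urokinase, pro-HGF and the receptor PAR2, and the Kunitz inhibitors HAI-1 (Spint1) and HAI-2 (Spint2) restrain it. Kallikrein-related peptidases are secreted by epithelia, and their genes lie side by side in 1 cluster.

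The libraries held 22355015 to 29042569 counts, and Pearson's r of log2 CPM (counts scaled to library size) across genes was 0.9978 to 0.9981 within a group and 0.9688 to 0.9699 between groups. Library pairs of 1 group differed by more than sampling noise, with a chi-square per degree of freedom from 1.86 to 4.01. Etv4 itself had 3098, 3648 and 3030 counts in the control libraries and 2503, 2217 and 2207 counts in ETV4 KO. It was lower but still transcribed in ETV4 KO, at 133.9 CPM ± 0.752 in controls and 89.8 CPM ± 2.44 in ETV4 KO (SD, n = 3 a group). Its log2 fold change was -0.58 (adjusted p = 1.03e-14 by edgeR's quasi-likelihood test), but -0.11 (adjusted p = 0.0074) after removal of the median over expressed genes in the surrounding 10 Mb. The epithelial markers Krt8, Krt18, Krt19, Epcam and Cdh1 were all detected, with a summed level of 4741 to 4867 CPM in controls and 3279 to 3399 CPM in ETV4 KO. Krt8 and Krt18 made up most of that sum, and while they, Epcam and Cdh1 fell, Krt19 rose by 0.14 (adjusted p = 0.00147 by edgeR). All 5 mast cell markers (Cpa3, Mcpt4, Cma1, Tpsb2 and Kit), the markers of a cell type rich in tryptases, had 0 counts. Fibroblast markers summed to 9.89 to 11.6 CPM and 12.4 to 14.2 CPM, nearly all of it Pdgfra, with Lum and Thy1 at 0 in every library. Macrophage and leukocyte markers summed to 10.0 to 10.6 CPM and 9.24 to 11.2 CPM, mostly Cd68, with Adgre1 and Lyz2 at 0. Neutrophil markers reached at most 0.0440 CPM with S100a9 at 0, and endothelial markers at most 0.616 CPM with Emcn at 0.

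Of the 8 genes, Klk10 and Plaur were higher in ETV4 KO, Plau, Plat, St14, Prss22 and Klk8 were lower, and Prss8 overlapped between the groups. The differences ran from a log2 fold change of -1.90 for Klk8 to 3.42 for Klk10. At the adjusted p of 0.05 used for all genes, 2 of the 8 were called higher, 5 lower and 1 not called. Over all 12076 genes tested, 71.1% were called, 35.0% higher and 36.0% lower. For 7 of the 8 the values of the groups did not overlap, and this held for 72.7% of all genes tested. The median log2 fold change was -0.64 for the 8 genes, whose choice set that value, and 0.00 for all genes tested. In RNA from a whole culture, fewer cells that express a gene and less of its RNA per cell cannot be told apart.

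**Figure D1:**
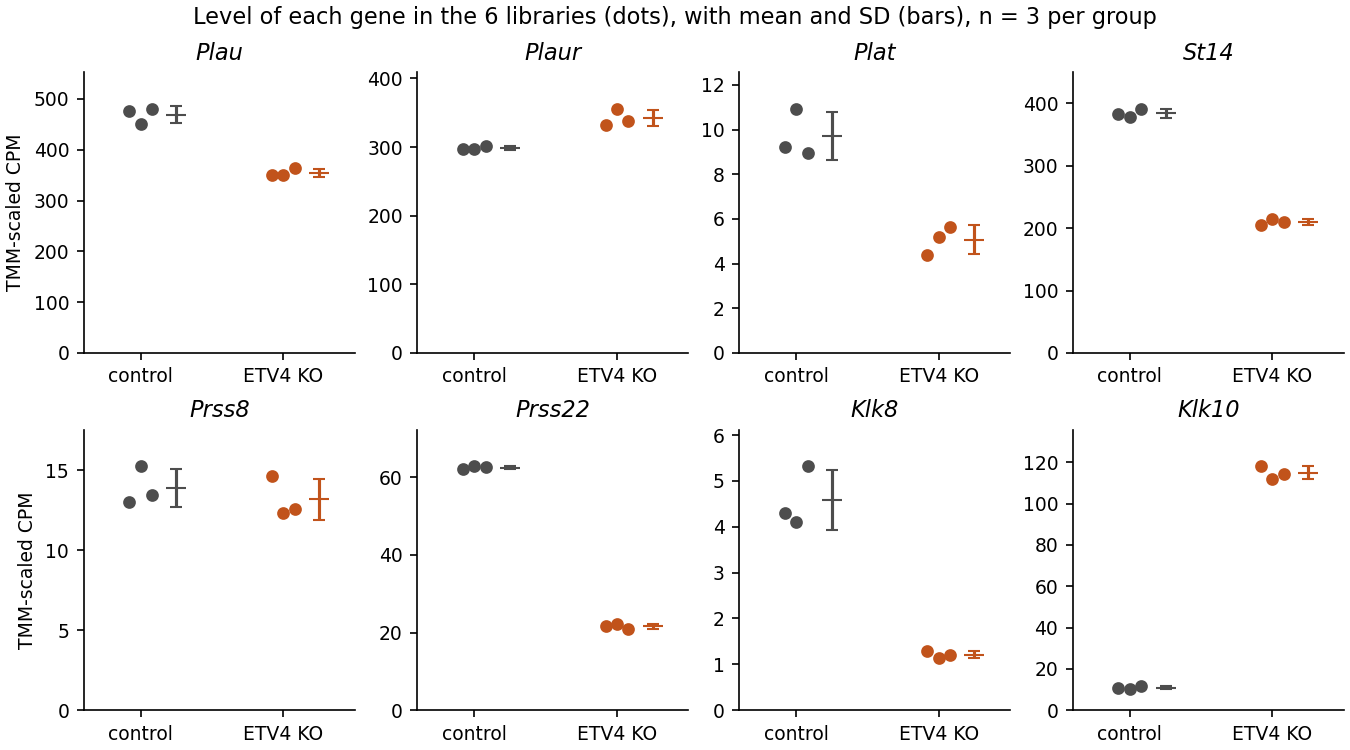
TMM-scaled CPM (vertical axes, each from 0) of the 8 genes in the 3 control libraries (grey dots) and the 3 ETV4 KO libraries (orange dots), with the mean and SD beside them. Klk10 stands at 10.1 to 11.5 CPM in controls and 112 to 118 CPM in ETV4 KO, and Prss8 is the 1 gene whose groups overlap.

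Plau, which encodes urokinase, was the most abundant of the 8 genes and was lower in ETV4 KO. It lies on chromosome 14 (20836660 to 20843385, plus strand, mm10). Plau stood at 476, 450.2 and 480.4 CPM in control replicates 1, 2 and 3, and at 351, 349.6 and 364 CPM in ETV4 KO replicates 1, 2 and 3. The lowest control library was well above the highest ETV4 KO library. The means were 469 CPM ± 16.4 and 355 CPM ± 7.81 (SD, n = 3 a group), a log2 fold change of -0.40 (SE 0.033). Among the 40 other expressed genes in the same 10 Mb of the chromosome the median was 0.21, and with that median taken out the value of Plau was -0.61.

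Plaur, the receptor that holds urokinase at the cell surface, was slightly higher in ETV4 KO. It lies on chromosome 7 (24462484 to 24475968, plus strand). Plaur stood at 298, 297 and 302 CPM in the controls and at 333, 356 and 338 CPM in ETV4 KO. The groups did not overlap, with the ETV4 KO libraries more spread than the controls. The means were 299 CPM ± 2.77 and 342 CPM ± 12.0 (SD, n = 3 a group), and the log2 fold change was 0.20 (SE 0.032). This difference was smaller against the local background: the 69 other expressed genes of its 10 Mb had a median of 0.11. With that median taken out the log2 fold change of Plaur was 0.09, and Plaur was still called higher. The ratio of Plau to Plaur counts, each per kb of exon, was taken within each library, free of scaling between libraries. It was 1.68 to 1.77 in the controls and 1.09 to 1.19 in ETV4 KO. The size of this ratio depends on the annotated exon lengths, but its fold difference between the groups does not.

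Plat, which encodes tissue-type plasminogen activator, was a minor transcript and was also lower. It lies on chromosome 8 (22757727 to 22782844, plus strand). Plat had 214, 296 and 204 counts in the control libraries and 125, 128 and 135 counts in ETV4 KO, which is 9.22, 10.9 and 8.97 CPM against 4.37, 5.17 and 5.65 CPM. Every ETV4 KO library was below every control library. The log2 fold change was -0.96 (SE 0.11). Urokinase transcripts outnumbered those of Plat in every library, with a Plau to Plat ratio per kb of exon of 109 to 141 in the controls and 170 to 212 in ETV4 KO. Ap3m2, the next protein-coding gene, 4.51 kb after Plat and named after its value was seen, had a log2 fold change of -0.87 (SE 0.077, adjusted p = 3.43e-11 by edgeR), while the 39 other expressed genes of the 10 Mb had a median of -0.05.

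Among the inhibitors of urokinase, Serpinb2, which encodes PAI-2, fell from 52 counts in each control library to 4, 6 and 8 counts in ETV4 KO. Its log2 fold change was -3.17 (SE 0.30, adjusted p = 1.46e-10 by edgeR). Serpine2, which encodes protease nexin-1, had 32 counts over the controls and 6 over ETV4 KO and was too low to be tested.

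Plasminogen itself was not made at a level these libraries could show: Plg had 0 counts in 5 libraries and 1 count in ETV4 KO replicate 2. The list of plasminogen, its inhibitors and its cell-surface receptors held 11 genes, of which 5 were tested, 3 fell and 2 were not called, where 36.0% of all genes tested fell and 71.1% were called. Among the receptors, Plgrkt, a membrane protein that binds plasminogen, fell from 24.7 CPM ± 0.611 to 17.3 CPM ± 0.727 (SD, n = 3 a group), with a log2 fold change of -0.52 (SE 0.062, adjusted p = 1.21e-08 by edgeR). Annexin A2 and S100A10 form a surface complex that binds plasminogen and tissue-type activator. Anxa2 was abundant at 1424 CPM ± 45.1 and 1431 CPM ± 61.7 (SD, n = 3 a group) and was not called (log2 fold change 0.01, SE 0.033, adjusted p = 0.858 by edgeR), with a sign that depended on the scaling. With the median of its 10 Mb taken out the value was 0.155 and it was called higher (adjusted p = 0.000162). S100a10 fell by 0.18 on the log2 scale (SE 0.030, adjusted p = 6.26e-06 by edgeR), whereas with the median of its 10 Mb taken out the value was 0.04 and the call was lost (adjusted p = 0.248).

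A further list held partners that hold the urokinase receptor or clear it from the surface. Of its 15 genes 9 were tested, 5 rose, 2 fell and 2 were not called, with a median log2 fold change of 0.28 against 0.00 for all genes tested. The 7 of 9 called are close to the 71.1% called over all genes. Lrp1, the endocytic receptor that takes up complexes of urokinase with its inhibitors, rose from 236 CPM ± 16.9 to 385 CPM ± 5.75 (SD, n = 3 a group), by 0.71 (SE 0.038, adjusted p = 2.81e-16 by edgeR). The integrin subunit Itga5 rose by 0.95 (SE 0.043, adjusted p = 3.70e-18 by edgeR). Igf2r, which also binds the receptor, rose by 0.45 (adjusted p = 4.49e-13 by edgeR). With the median of its 10 Mb taken out it had -0.11 and was called lower instead (adjusted p = 0.00369 by edgeR). Itgb3 fell from 4.20 CPM ± 0.634 to 0.828 CPM ± 0.203 (SD, n = 3 a group), with a log2 fold change of -2.34 (SE 0.20, adjusted p = 1.69e-11 by edgeR). Itga3 had -0.38, a call that was lost with the median of its 10 Mb taken out (-0.01, adjusted p = 0.745).

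**Figure D2:**
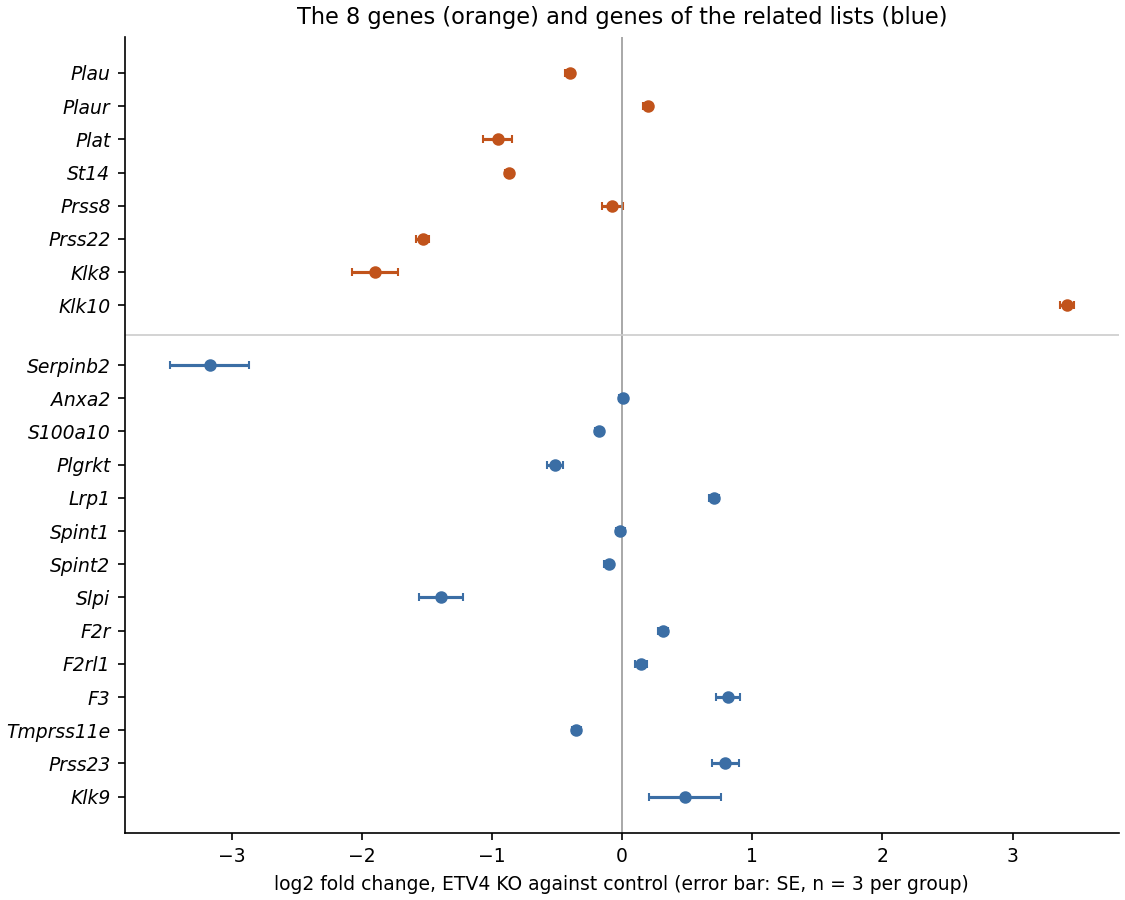
Log2 fold change of ETV4 KO against control with its SE (horizontal axis) for the 8 genes (orange) and 14 genes of the related lists (blue), from the edgeR fit over all genes, n = 3 per group. Among the genes drawn, Klk10 at 3.42 lies farthest to the right and Serpinb2 at -3.17 farthest to the left; Itgb3 and other genes named in the text are not drawn.

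St14, which encodes matriptase, was expressed at a high level in controls and was lower in ETV4 KO. It lies on chromosome 9 (31089402 to 31131853, minus strand). St14 stood at 383, 378 and 391 CPM in the controls and at 205, 215 and 211 CPM in ETV4 KO. The libraries of each group were close together and far from the other group. The means were 384 CPM ± 6.77 and 210.3 CPM ± 4.78 (SD, n = 3 a group), a log2 fold change of -0.87 (SE 0.032). The 26 other expressed genes of its 10 Mb had a median of 0.13, in the other direction. The next protein-coding genes on either side, named after their values were seen, fell as St14 did. Zbtb44, 13.5 kb away, had a log2 fold change of -0.41 (SE 0.050, adjusted p = 1.87e-08 by edgeR). Aplp2, 17.7 kb away, had -0.32 (SE 0.031, adjusted p = 2.07e-10 by edgeR). Whether these differences are related was not tested.

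Prss8, which encodes the GPI-anchored protease prostasin, showed no separation of the groups. It lies on chromosome 7 (127925716 to 127930104, minus strand). Prss8 stood at 13.0, 15.2 and 13.4 CPM in the controls and at 14.6, 12.3 and 12.6 CPM in ETV4 KO. ETV4 KO replicate 1 was above 2 of the control libraries, and the log2 fold change was -0.08 (SE 0.082). The value was negative in 14 of 15 alternatives and 0.00 without control replicate 2. The 78 other expressed genes of its 10 Mb had a median of 0.11, and with that median taken out Prss8 had -0.18 and was called lower, in this alternative alone. A stretch of 122 bases of Prss8 exon overlaps exons of Kat8 on the opposite strand, and although the library kit marks strand, the strand setting of the counting is not known here. Kat8, named for this overlap, had a log2 fold change of 0.40 (SE 0.092, adjusted p = 0.000333 by edgeR).

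The ratio of matriptase to prostasin transcripts therefore differed between the groups. St14 had 7.13, 6.01 and 7.07 times the counts of Prss8 per kb of exon in the controls and 3.40, 4.23 and 4.06 times in ETV4 KO, with no overlap. Spint1, the inhibitor that binds matriptase, was not called, at 120.0 CPM ± 3.21 and 118.9 CPM ± 2.07 (SD, n = 3 a group; log2 fold change -0.01, SE 0.036, adjusted p = 0.758 by edgeR). Its value was -0.22 with the median of its 10 Mb taken out (adjusted p = 2.97e-06) and 0.01 without control replicate 2. St14 had 1.11 to 1.19 times the counts of Spint1 per kb of exon in the controls and 0.614 to 0.659 times in ETV4 KO. The ratio of St14 to Spint1 was thus lower in every ETV4 KO library than in every control library. St14 had 0.589 to 0.621 times the counts of Spint2 per kb of exon in the controls and 0.349 to 0.363 times in ETV4 KO. The size of each ratio depends on the annotated exon lengths, so which transcript was more abundant cannot be read from it. Its fold difference between the groups does not depend on them. For Prss8 against Spint1 the ratios overlapped, at 0.167 to 0.185 and 0.156 to 0.180.

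Prss22, a secreted tryptase-like protease that can cut pro-urokinase, was among the lower genes. It lies on chromosome 17 (23993534 to 23998100, minus strand). Prss22 stood at 62.0, 62.8 and 62.6 CPM in the controls and at 21.7, 22.1 and 20.9 CPM in ETV4 KO. The 3 libraries of each group were nearly equal. The means were 62.5 CPM ± 0.442 and 21.6 CPM ± 0.627 (SD, n = 3 a group), 2.90-fold lower in ETV4 KO, with a log2 fold change of -1.53 (SE 0.049). The 122 other expressed genes of its 10 Mb had a median of 0.36, and with that median taken out the value was -1.90. Its neighbours on either side, Prss30 and Prss27, had 1 and 7 counts over the 6 libraries.

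Inhibitors of the Kunitz, Kazal, WAP and serpin families formed a further list. Of its 11 genes 5 were tested, 1 rose, 3 fell and 1 was not called, beside 71.1% called over all genes. Spint2, which encodes HAI-2, fell by 0.10 on the log2 scale (SE 0.033, adjusted p = 0.00718 by edgeR), a call that was lost without ETV4 KO replicate 1 (adjusted p = 0.0503), and the value was -0.21 with the median of its 10 Mb taken out. Slpi, the secretory leukocyte protease inhibitor, fell from 4.17 CPM ± 0.5 to 1.58 CPM ± 0.112 (SD, n = 3 a group), with a log2 fold change of -1.39 (SE 0.17, adjusted p = 1.21e-08 by edgeR). Wfdc2, a secreted WAP-domain protein, fell by 0.32 on the log2 scale (-0.15 with the median of its 10 Mb taken out) and the intracellular serpin gene Serpinb6a rose by 0.44.

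Receptors, channels, ligands and pro-enzymes on which these proteases act made up a list of 22 genes, of which 11 were tested, 7 rose, 3 fell and 1 was not called. Over all genes tested 35.0% rose and 36.0% fell. F2rl1, which encodes the matriptase target PAR2, rose by 0.15 (SE 0.046, adjusted p = 0.00666 by edgeR). That call was lost with library size alone as the scale (adjusted p = 0.0761), without ETV4 KO replicate 1 (0.0886) and with the median of its 10 Mb taken out (0.902, log2 fold change 0.01). F2r, the thrombin receptor PAR1, rose by 0.31 (SE 0.037, adjusted p = 1.21e-08 by edgeR; 0.18 with the median of its 10 Mb taken out), and the coagulation starter F3 by 0.81 from 7.02 CPM ± 0.313 to 12.3 CPM ± 0.996 (SD, n = 3 a group). Of the pro-enzymes that plasmin can activate, Mmp3 rose by 2.36 and Mmp9 fell by 1.27 on the log2 scale. Epcam, an adhesion protein that matriptase cuts, fell by 1.37, and it is also an epithelial marker, a list whose sum was lower in ETV4 KO although its member Krt19 rose. The part of that marker level in the lower St14 and Prss22 was not tested.

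Few relatives of these proteases were expressed. Of 19 other type II transmembrane serine proteases only 2 were tested: Tmprss11e, a matriptase relative of stratified epithelia, fell from 317 CPM ± 11.5 to 248 CPM ± 4.01 (SD, n = 3 a group), with a log2 fold change of -0.35 (SE 0.033, adjusted p = 1.15e-10 by edgeR; -0.58 with the median of its 10 Mb taken out), and Tmprss11b was not called. Tmprss2, named after its values were seen, had 26 counts over the controls and 0 over ETV4 KO, and was not tested because its counts were below the filter. Of 22 other Prss and tryptase genes 4 were tested, 2 rose and 2 were not called, beside 35.0% rising and 71.1% called over all genes. Prss23, a secreted protease, rose by 0.79 (SE 0.10, adjusted p = 6.38e-08 by edgeR) from 143, 152 and 138 counts to 257, 273 and 263 counts. Prss16, a thymic peptidase of another family, rose by 1.14 (SE 0.25, adjusted p = 0.000151 by edgeR). Prss36, which lies 2.53 kb from Prss8, was not called at -0.26 (SE 0.30, adjusted p = 0.442 by edgeR).

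**Figure D3:**
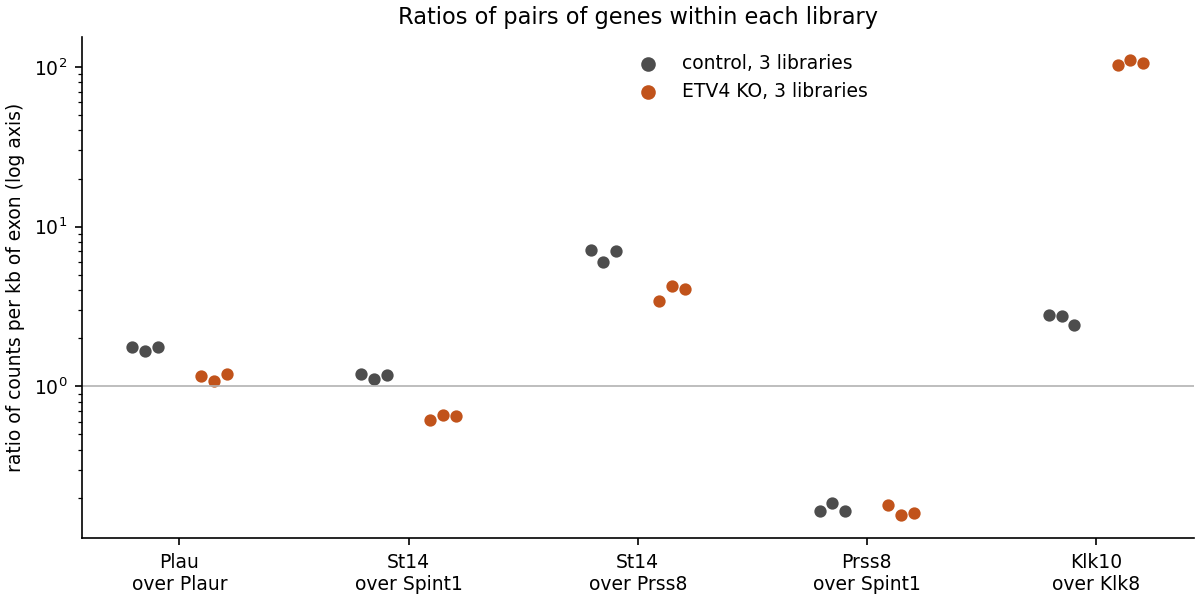
Ratio of the counts of 2 genes, each per kb of annotated exon (vertical axis, log scale), in each control library (grey) and each ETV4 KO library (orange). Klk10 over Klk8 goes from 2.42 to 2.80 up to 103 to 111, and Prss8 over Spint1 overlaps between the groups.

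Klk10 was the gene of the 8 with the largest difference between the groups. It encodes a secreted kallikrein-related peptidase that was first described as a product of normal mammary epithelial cells reduced in breast cancer lines. Klk10 lies on chromosome 7 (43781035 to 43785410, plus strand). It had 250, 274 and 261 counts in the control libraries and 3384, 2774 and 2734 counts in ETV4 KO, which is 10.8, 10.1 and 11.5 CPM against 118, 112 and 114 CPM. The groups were about an order of magnitude apart, and the spread within each was small. The means were 10.8 CPM ± 0.682 and 114.9 CPM ± 3.12 (SD, n = 3 a group), 10.6-fold higher in ETV4 KO, with a log2 fold change of 3.42 (SE 0.053).

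Klk8, which encodes neuropsin, a kallikrein of skin and brain, differed in the opposite direction although it starts only 16.5 kb after Klk10 on the same strand (chromosome 7, 43797577 to 43803826). It had 100, 111 and 121 counts in the control libraries and 37, 28 and 29 counts in ETV4 KO, which is 4.31, 4.1 and 5.32 CPM against 1.29, 1.13 and 1.21 CPM. All ETV4 KO libraries were below all control libraries. The means were 4.58 CPM ± 0.654 and 1.21 CPM ± 0.0808 (SD, n = 3 a group), 3.78-fold lower in ETV4 KO, with a log2 fold change of -1.90 (SE 0.18). In the same library, Klk10 had 2.80, 2.77 and 2.42 times the counts of Klk8 per kb of exon in the controls and 103, 111 and 106 times in ETV4 KO. Klk8 shares 382 bases of exon with the non-coding gene 2310002F09Rik on the opposite strand, which was not analysed here.

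Klk9 lies between these genes, 6.48 kb after the end of Klk10 and 820 bases before the start of Klk8. It had 17, 18 and 19 counts in the control libraries and 24, 25 and 31 counts in ETV4 KO. In CPM the ETV4 KO libraries were all above the controls, by a small margin, but the gene was not called (log2 fold change 0.48, SE 0.28, adjusted p = 0.117 by edgeR). Klk11, 1.77 kb before Klk10, had 14 counts over the 6 libraries, and Klk7, after Klk8, had 2. Of the 26 kallikrein genes from Klk14 to Klk1 in this stretch of chromosome 7, 16 had 0 counts, 3 were tested and none of the rest had more than 29 counts in all. At the sides of Klk10, Klk9 was not called and Klk11 was too low to be tested, and the 61 other expressed genes of its 10 Mb had a median of 0.18.

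**Figure D4:**
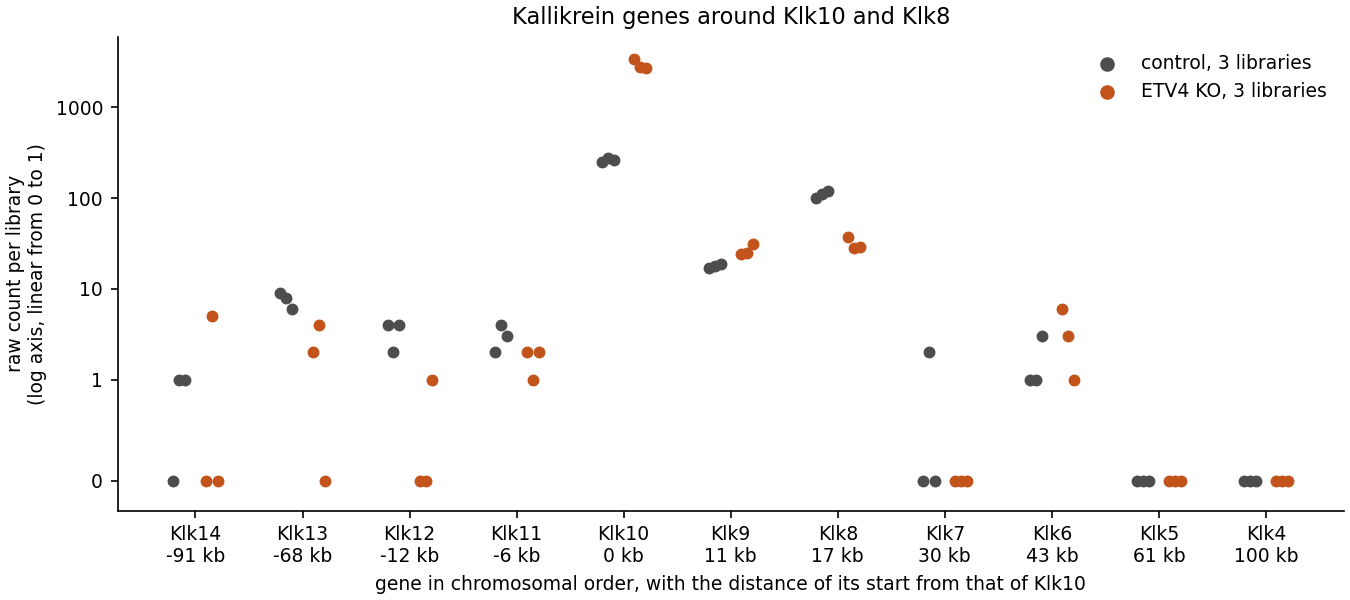
Raw counts per library (vertical axis, log scale, linear from 0 to 1) of 11 kallikrein genes in chromosomal order, labelled with the distance of each start from that of Klk10, for 3 control (grey) and 3 ETV4 KO libraries (orange). Klk10 goes from 250 to 274 counts up to 2734 to 3384, Klk8 from 100 to 121 down to 28 to 37, and the genes outside Klk8 to Klk10 have single-digit counts or none.

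The 250 bases before the RefSeq start are shown for Klk10 and Klk8, because these near neighbours differed in opposite directions and the labels name a PEA3-type factor as the target. The sequences are from RefSeq (GRCm38.p6), plus strand, chr7:43780804-43781053 for Klk10 and chr7:43797327-43797576 for Klk8. Capitals mark matches to AGGAAG, the PEA3 motif, on either strand.
Klk10: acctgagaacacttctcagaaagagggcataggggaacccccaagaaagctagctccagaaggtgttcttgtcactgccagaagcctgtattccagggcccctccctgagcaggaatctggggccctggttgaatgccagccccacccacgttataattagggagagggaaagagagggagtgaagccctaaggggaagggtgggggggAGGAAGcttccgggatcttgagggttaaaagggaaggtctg
Klk8: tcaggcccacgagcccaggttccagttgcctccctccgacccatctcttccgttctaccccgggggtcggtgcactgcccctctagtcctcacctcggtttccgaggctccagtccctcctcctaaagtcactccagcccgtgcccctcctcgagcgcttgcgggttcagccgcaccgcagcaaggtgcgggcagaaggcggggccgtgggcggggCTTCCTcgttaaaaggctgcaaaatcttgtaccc
Each window held 1 match, which begins 41 bases before the RefSeq start in Klk10 and 34 bases before it, on the other strand, in Klk8. For Klk10 the RefSeq start lies after the GENCODE start of 43781035 given above. The last bases of its window, which ends at 43781053, therefore lie inside the gene as placed by GENCODE. Of 32851 RefSeq windows of 250 bases, 29.5% held at least 1 such match. The shorter ETS core GGAA, which every AGGAAG contains, was also counted on either strand, where the other strand reads TTCC in print. It occurred 8 times for Klk10 and 4 times for Klk8 and was present in 93.4% of all windows. The AP-1 motif TGANTCA was in neither window and in 6.75% of all windows. Plaur, the only other of the 8 genes with a matched window, had 1 AGGAAG, 130 bases before its start, and 1 AP-1 match, 69 bases before it. A match describes the letters alone, and no binding was measured.

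Across the 8 genes, levels per kb of exon spanned about 2 orders of magnitude in both groups. In controls the order of mean CPM per kb was Plau (198), Plaur (114), St14 (50.3), Prss22 (47.2), Klk10 (7.86), Prss8 (7.503), Klk8 (2.97) and Plat (1.56). Klk10 and Prss8 overlapped in that order, at 7.37 to 8.36 and 7.03 to 8.24, and no other neighbours did. In ETV4 KO the order was Plau (149.8), Plaur (131), Klk10 (83.7), St14 (27.5), Prss22 (16.3), Prss8 (7.12), Plat (0.811) and Klk8 (0.787). Plat and Klk8 overlapped there, at 0.6997 to 0.905 and 0.734 to 0.839.

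The protease transcripts made up a different mix in each group. The 7 protease genes, all but Plaur, summed to 307 to 322 CPM per kb of exon in the controls and 282 to 289 in ETV4 KO. Klk10 made up 2.40% to 2.60% of that sum in the controls and 28.8% to 30.0% in ETV4 KO. Urokinase went from 61.9% to 63.4% down to 51.6% to 53.2%, St14 from 15.8% to 16.1% down to 9.37% to 9.97%, and Prss22 from 14.7% to 15.5% down to 5.46% to 5.91%. These shares are of RNA per length and follow from the choice of genes.

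For the 3 genes with an absolute log2 fold change of at least 1, the genes with the nearest pattern were found among 8926 tested genes of at least 10 CPM in the higher group, by the Euclidean distance of centred log2 CPM over the 6 libraries. For Klk10 they were Dab2 (distance 0.192), Fgfbp1 (0.200) and Anxa8 (0.208), with log2 fold changes of 3.32, 3.41 and 3.40. For Prss22 they were Ifitm3 (0.104), Ifi27 (0.108) and Grb7 (0.112), with -1.56, -1.55 and -1.48. For Klk8 they were Slc36a4 (0.215), Phyh (0.233) and Slc43a2 (0.245), with -1.69, -1.48 and -1.70. With 2 groups of 3 libraries, this distance mostly measures how alike the differences between the groups are.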

How the data were processed

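The authors deposited 1 table of raw counts per gene symbol, a unit taken from the values, which are whole numbers with no normalization. Tools listed in the submitters' processing notes are STAR 2.7.9a, featureCounts, FastQC 0.11.9 and R 4.1.1, with mm10 and hg38 as builds. Annotation, strand setting and the treatment of multi-mapping reads were not given in the sources used here. Groups came from the titles, and columns were matched by library name. Counts were fitted with edgeR 4.0.16 in R 4.3.3: filterByExpr (minimum count 10, total 15), TMM, glmQLFit and glmQLFTest over 12076 genes, Benjamini-Hochberg adjustment, called under 0.05. SE is the absolute log2 fold change over the square root of F. CPM is TMM-scaled (marker sums use raw library sizes), and log2 CPM adds 0.5. The steps were checked on simulated data in which few genes differed. Scaling and calling where most genes differ, as with the 71.1% called here, were not checked.

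The genes and lists were chosen with earlier results of these data known. Beyond the 8 genes, the text names per list up to 3 called genes per direction with at least 1 CPM, the direct partners, and neighbouring kallikrein and Prss genes. Positions and exon lengths are from GENCODE M21 (GRCm38, equal to mm10). An exon length is the union of all annotated exons of a gene, so levels compared between genes depend on it. RefSeq promoter windows were matched for 3 of 8. Expressed genes for 10 Mb medians have an edgeR log2 CPM above 3. Alternatives were other scalings, DESeq2 1.42.0, limma-voom (limma 3.58.1), other filters, a replicate block, each sample left out and 10 Mb medians as offsets. The result of 1 listed gene is not reported here.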

Additional observations from a re-analysis of the deposited data

How the results depend on the processing

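Over the 15 alternatives, which are 9 of processing and 6 that each leave out 1 sample, the log2 fold changes of Plau, Plaur, Plat, St14, Prss22, Klk8 and Klk10 kept their sign. That of Prss8 ran from -0.18, with the 10 Mb medians taken out, where it was called lower, to 0.00. With library size alone the values were -0.45 for Plau, 0.14 for Plaur, -0.92 for St14 and -1.585 for Prss22. With upper-quartile factors they were 0.16 for Plaur, -0.91 for St14 and -1.57 for Prss22. With the 10 Mb medians taken out they were -0.61 for Plau, 0.087 for Plaur, -0.997 for St14, -1.90 for Prss22, -2.08 for Klk8 and 3.24 for Klk10. These shifts follow from the scale or the offset that each alternative sets.

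With the 10 Mb medians taken out 2 genes of the plasminogen list were called higher. With no low-count filter, which tests more genes, 3 other transmembrane proteases, 1 other Prss gene and 2 other kallikreins were called lower. Of 360 repeats for 24 other named genes, 346 kept direction and call. With the sign kept, 5 lost the call and 2 gained it, and 7 changed sign. Among those 7, S100a10 also lost its call, and Igf2r was called in the other direction. The calls gained were, with the 10 Mb medians taken out, those of Anxa2 (0.155) and Spint1 (-0.22). Signs changed for Anxa2 (-0.030 with upper-quartile factors, -0.044 with library size alone, -0.025 to 0.038 leaving out 1 sample), Spint1 (-0.032 to 0.006 leaving out 1 sample), and, with the 10 Mb medians taken out, S100a10 (0.04) and Igf2r (-0.11). The cause was not tested.

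Deviations of samples with the same replicate number correlated at 0.0186 to 0.071, and those with different numbers at -0.0863 to 0.0199. The numbers were not taken as pairs in the main fit, although a weak pairing is possible. With a replicate block 8882 genes were called, against 8582 without, and the number of listed genes called was 27 in both fits. Low counts limit Klk9, Serpinb2 and Prss36, whose SEs were 0.28 to 0.30, and they left most kallikrein and Prss genes untested.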
